A study of Morella rubra with 12 samples.

Results

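Ripe red bayberry fruit was compared with pale fruit picked at an earlier stage. The ripe fruits, 3 libraries, are of the cultivar Dongkui (DK, titled red, colour label black) at stage 3, which is 85 days after flowering. They were set against 3 libraries of fruits of the pale strain Baidongkui (BDK, titled pink-white, colour label pink) at stage 2, which is 70 days after flowering. These 6 of the 12 libraries of the series were chosen by their titles, and all genes with at least 1 FPKM in 3 or more of the 6 were tested. FPKM is the number of fragments of a gene divided by its length and by the size of the library. BDK libraries of 55 days (stage 1) and 85 days (stage 3), 3 each, served for comparison and entered the estimate of spread. Strain and stage differ together between DK at 85 days and BDK at 70 days, so their parts cannot be told apart here. The labels name fruits as the tissue and do not say whether the 3 libraries of a group came from separate trees or fruits. Every p-value below therefore reflects how far these samples scatter, which can include purely technical scatter.

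Chinese bayberry (Morella rubra) bears soft stone fruits whose flesh is made of juice-filled segments. As the fruits ripen they gain sugars, lose acids and soften, and in red cultivars the flesh fills with anthocyanins, chiefly a glucoside of cyanidin. The enzymes of this pigment pathway are switched on together by a complex of MYB, bHLH and WD40 proteins, and pale strains gain little of the pigment. The files give the genes as IDs of assembled transcripts and do not pair them with names, so pigment, sugar and cell wall genes were not analysed here, and no marker of the fruit tissue could be looked up.

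Of 119701 genes in the files, 79505 lay above 0 in at least 1 of the 6 libraries and 18010 passed the filter, 14544 of them in all 6 libraries. Of the genes that passed, 165 did so only through the DK libraries and 724 only through the 70-day BDK libraries, and such genes had to differ. Without fragment counts the sequencing depth of a library is not known. An estimate of relative depth, from the size of 1 fragment's step among low values, was 0.844 to 1.05 in DK and 1.07 to 1.2 in BDK at 70 days, on a scale where the 12 libraries average 1. The DK libraries listed 32084 to 35489 genes above 0, against 41870 to 47865 in BDK at 70 days. The part of depth in that difference was not tested.

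A split of the libraries crossed the labelled groups. In the series 876 genes lay above 0 in all BDK libraries of 55 days, BDK 70-day replicate 1 and BDK 85-day replicates 1 and 2, and at 0 in the other 6 libraries, which hold all 3 of DK and BDK 70-day replicates 2 and 3. The reverse held for 120 genes. One of the 70-day libraries thus stood apart from the other 5 libraries compared, and counts without it are given beside the main ones.

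Ripe red fruit differed from 70-day pale fruit in many of the genes tested, mostly by less than 2-fold. Limma called 7889 of 18010 genes (43.8%) at a Benjamini-Hochberg adjusted p below 0.05, of which 3738 (20.8%) were higher and 4151 (23.0%) lower in DK. Of these, 755 genes were at least 2-fold higher (4.19% of those tested) and 1318 at least 2-fold lower (7.32%). At least 8-fold differences were seen in 51 higher genes (0.283%) and 74 lower genes (0.411%). The median absolute difference over all tested genes was 0.36 in log2(FPKM + 1), where the added 1 makes differences of weakly expressed genes look smaller than they are. The values of the 3 DK and the 3 BDK libraries did not overlap for 10558 genes (58.6%) on FPKM as deposited, beside the 43.8% called, with 3422 higher and 7136 lower in DK. After division by the scaling factors, which was added after seeing the data, 10415 genes (57.8%) did not overlap, 4796 of them higher and 5619 lower in DK.

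Without BDK 70-day replicate 1 the model called 6673 genes, 3239 higher and 3434 lower, and with the library split as a term 7080 genes, 3389 higher and 3691 lower. All 7889 genes kept their direction under both. Of these, 6491 stayed called in that direction without BDK 70-day replicate 1, and 6932 with the split as a term. The balance of directions depended on the scaling. On FPKM as deposited, with no scaling factors, 2534 genes were higher and 5566 lower, with a median log2 difference over all genes of -0.18, against -0.053 with trimmed-mean factors.

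**Figure D1:**
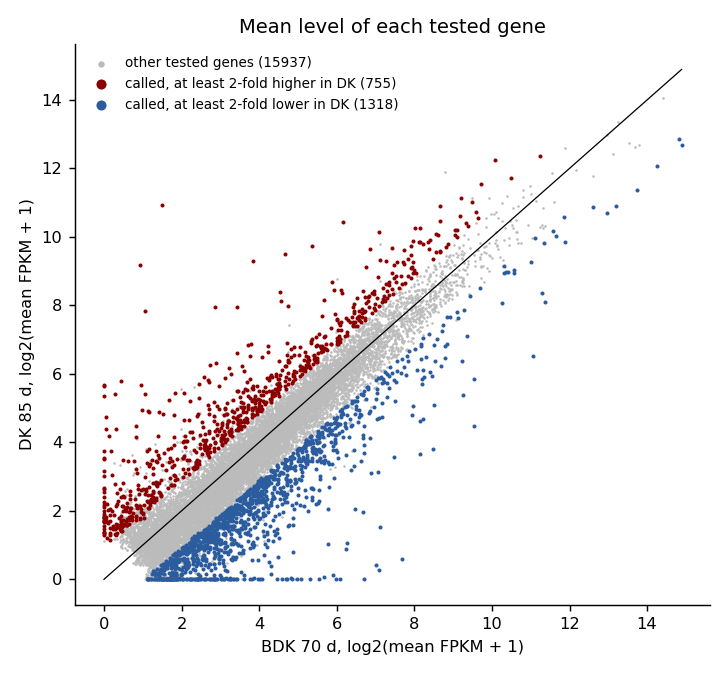
Mean FPKM of each of the 18010 tested genes in DK at 85 days (vertical axis) and BDK at 70 days (horizontal axis), both as log2(mean FPKM + 1), with equal levels on the line. Red points are the 755 genes called at least 2-fold higher in DK, blue points the 1318 called at least 2-fold lower, and the row of blue points at the bottom are genes listed at 0 in DK.

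Weakly expressed genes were more often lower than higher in DK, and genes of middle level more often higher. Among the 5372 genes with a mean of 1 to 5 FPKM over the 6 libraries, 365 were called higher in DK and 1277 lower. Among the 4692 genes of 20 to 100 FPKM the balance was turned, with 1594 higher and 955 lower, and among the 1317 genes of 100 to 1000 FPKM 520 were higher and 281 lower. Genes that passed the filter through 1 group alone had to differ, and 620 such genes lay at 1 to 5 FPKM. Without them, a setting added after seeing the data, 266 genes were higher and 908 lower at 1 to 5 FPKM, and 1590 higher and 947 lower at 20 to 100 FPKM. Without scaling factors the balance at 1 to 5 FPKM was 282 higher and 1577 lower, at 20 to 100 FPKM it went the other way, with 1087 higher and 1381 lower, and at 100 to 1000 FPKM it was near even, with 398 higher and 419 lower. Of the genes at least 2-fold lower in DK, 115 were listed at 0 in all 3 DK libraries, and of those at least 2-fold higher, 31 were listed at 0 in all 3 BDK libraries of 70 days. Fewer genes listed and lower relative depth go with DK, and their part in the lower calls of weak genes was not tested.

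The most abundant transcripts differed by at least 2-fold more often than others. Of the 83 genes averaging over 1000 FPKM across the 6 libraries, 34.9% were called and at least 2-fold different, against 9.76% of the genes of 20 to 100 FPKM and 11.5% of all genes tested. At 100 to 1000 FPKM that share was 16.3%. Genes called at any size were 61.4% over 1000 FPKM and 60.8% at 100 to 1000 FPKM. The median absolute log2 difference was 0.84 in the highest band and 0.333 at 20 to 100 FPKM. An average of 1000 FPKM or more was seen for 83 genes in DK and 84 in BDK at 70 days, and 54 genes had it in both, 65.06% of the DK list and 64.29% of the BDK list. Of the 112 tested genes that had it in either group, 24 were called at least 2-fold higher and 24 at least 2-fold lower in DK.

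The most abundant genes took a smaller share of the FPKM in ripe red fruit than in 70-day pale fruit. The 50 most abundant genes of each library took 20.7%, 20.7% and 20.5% of its FPKM in DK, against 26.5%, 30.0% and 30.8% in BDK at 70 days. In BDK at 85 days they took 22.63%, 19.98% and 22.22%, a range that includes the DK values. DK and 70-day BDK did not overlap, and the difference of their means, -8.47 percentage points, gave p = 0.1 (two-sided exact permutation test), the smallest p that 3 libraries against 3 allow. For the 10 most abundant genes the shares were 9.59% ± 0.033 in DK and 17.0% ± 1.7 in BDK at 70 days (SD, n = 3 each).

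**Figure D2:**
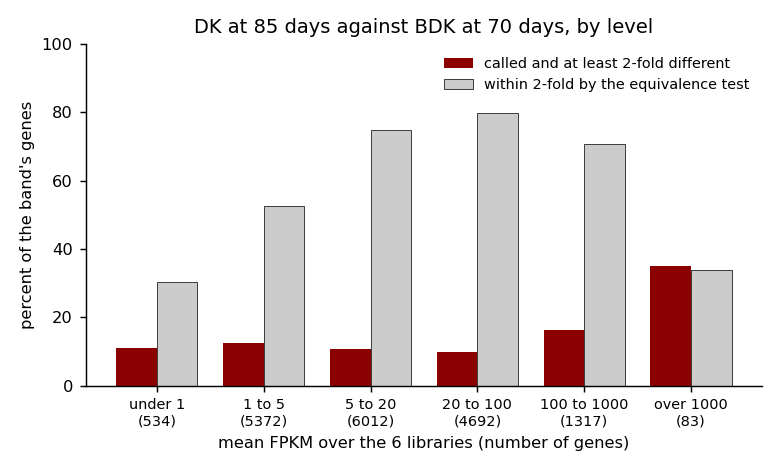
Percent of genes called and at least 2-fold different (red) and percent within 2-fold by the equivalence test (grey), by mean FPKM over the 6 libraries, with the number of genes in each band below it. At 20 to 100 FPKM 9.76% of genes were at least 2-fold different, and above 1000 FPKM 34.9%. The grey bars have no minimum level, and the added 1 FPKM narrows differences of low genes, so the low bands do not show equal levels.

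Gene c47647_g1 showed the largest difference of all genes that the naming rule admits. It was listed at 2140, 2118 and 1577 FPKM in the DK libraries, against 0.54, 3.47 and 1.47 FPKM in BDK at 70 days. Its values in BDK were 0.07 to 0.32 FPKM at 55 days and 351.97, 182.58 and 189.58 FPKM at 85 days. DK thus held more of this transcript than any BDK library, and ripe BDK fruit more than either younger stage. The fitted log2 difference between DK and BDK at 70 days was 9.67 ± 0.36 (SE, limma's adjusted p = 2.85e-07). Against BDK at 85 days DK was higher by 3.03 on the same scale (limma's adjusted p = 0.00168).

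Gene c50360_g1 was listed at 652, 597 and 477 FPKM in DK, against 1.71, 0.95 and 0 FPKM in BDK at 70 days. Ripe BDK fruit had 716, 683 and 712 FPKM of it, so both strains carried it at 85 days. Its log2 difference was 8.48 ± 1.99 (SE), with limma's adjusted p = 0.00599. The 55-day libraries, which share the estimate of spread, were far apart, 1 at 977 FPKM and the others at 0 and 0.64. With only DK and 70-day BDK in the model the adjusted p was 7.34e-05, and over all alternatives it ran from 5.55e-07 (without that library) to 0.0251.

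Gene c56441_g1 stood lower in ripe red fruit. It had 0.24, 0.91 and 0.34 FPKM in DK, against 339, 233 and 42.4 FPKM in BDK at 70 days, a log2 difference of -6.60 ± 0.96 (SE, limma's adjusted p = 0.000383). In BDK it was at 0.16 to 3.39 FPKM at 55 days and 0.07 to 11.12 FPKM at 85 days, so that the 70-day libraries were the highest of the series.

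Gene c42973_g1 was listed at 0 in all 3 DK libraries, against 166, 55.6 and 86.3 FPKM in BDK at 70 days. It was also listed at 0 in all 55-day libraries and in 2 of the 3 BDK libraries of 85 days, the third having 32.2 FPKM. Limma's adjusted p was 0.000944, and no fold is given against a group at 0. Another gene of its assembly cluster had a mean of 48.3 FPKM in DK and 53.5 FPKM in BDK at 70 days, and reads could have been divided between them.

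Complete presence in 1 group and absence in the other was rare. Only 5 genes had at least 5 FPKM in all 3 DK libraries and 0 in all 3 BDK libraries of 70 days, and 4 of these 5 averaged at least 5 FPKM in BDK at 85 days. The reverse held for 14 genes, and 7 of the 14 were also listed at 0 in all BDK libraries of 85 days. Without BDK 70-day replicate 1 the first number was 5 and the second 77, of which 58 were at 0 in all BDK libraries of 85 days. Leaving out a library loosens the rule, so either number could only stay or rise. The count was not repeated without another 70-day library, so the rise cannot be laid to replicate 1. Of the 77 genes, 18 were called in the model with all libraries. A gene at 0 in all DK libraries passed the filter only with at least 1 FPKM in all 3 BDK libraries of 70 days. Those of the 77 below that in replicate 1 were therefore not tested, and their number is not given here.

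The genes that set DK apart from 70-day BDK fruit were read next in the 6 BDK libraries of 55 and 85 days. The levels in these 6 did not enter the difference by which the genes were chosen, but their scatter entered the estimate of spread. The 755 genes at least 2-fold higher in DK made up 13.3% ± 0.76 of a DK library's FPKM and 3.96% ± 0.042 of a BDK library's at 70 days (SD, n = 3 each), the values by which they were chosen. In the other BDK groups they made up 2.93% ± 0.30 at 55 days and 12.9% ± 0.11 at 85 days. The 1318 genes at least 2-fold lower in DK made up 5.73% ± 0.19 in DK and 19.5% ± 2.11 in BDK at 70 days, and in the other BDK groups 29.3% ± 1.39 at 55 days and 7.18% ± 0.81 at 85 days. For the higher genes the ripe BDK libraries, at 12.8% to 13.02%, lay inside the DK range of 12.4% to 13.8%. For the lower genes they lay at 6.49% to 8.07%, above the DK range of 5.52% to 5.89% and below the 70-day range of 17.1% to 21.2%. With the genes chosen from a model of DK and 70-day BDK alone, which leaves the 6 libraries out of the choice, the 770 higher genes made up 3.01% ± 0.35 in BDK at 55 days and 13.5% ± 0.12 at 85 days, and the 1420 lower genes 29.4% ± 1.23 and 7.21% ± 0.88.

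The median levels of these genes followed the same order, which single genes need not follow. Among the 755 higher genes the median of the mean levels was 30.3 FPKM in DK, and in BDK 7.29 FPKM at 55 days, 9.55 FPKM at 70 days and 30.1 FPKM at 85 days. Among the 1318 lower genes it was 2.26 FPKM in DK, and in BDK 18.3 FPKM at 55 days, 10.6 FPKM at 70 days and 2.85 FPKM at 85 days.

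**Figure D3:**
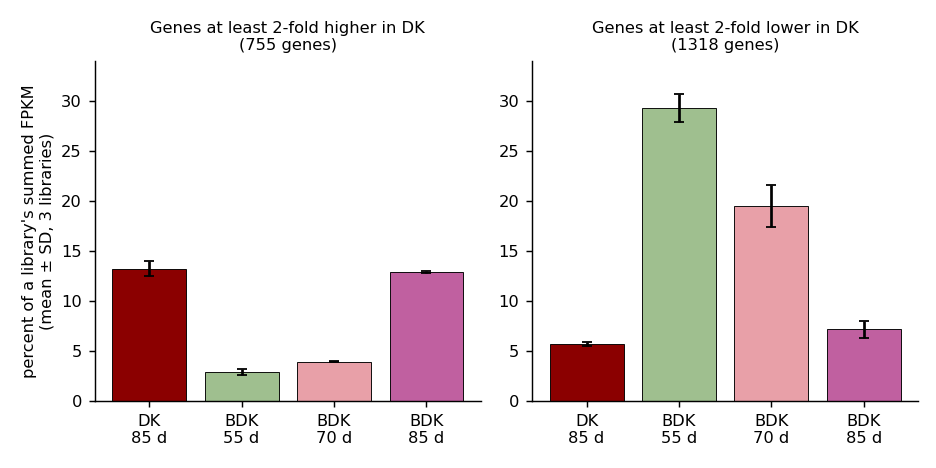
Percent of a library's summed FPKM held by the 755 genes at least 2-fold higher in DK than in BDK at 70 days (left) and the 1318 at least 2-fold lower (right), as mean and SD of 3 libraries per group. Both sets were chosen on DK at 85 days and BDK at 70 days, and in BDK at 85 days they held 12.9% and 7.18%.

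BDK at 85 days was then set against BDK at 55 days, the youngest stage of the pale strain. The levels in that comparison come from other libraries, but with all 12 libraries in 1 model both comparisons use the same estimate of spread. It called 5960 genes higher (33.1% of the 18010) and 5492 lower (30.5%). Of the 3738 genes higher in DK than in 70-day BDK fruit, 2693 rose in BDK from 55 to 85 days (72.0% of the DK list and 45.2% of the BDK list) and 290 fell (7.76% of the DK list). Of the 4151 lower genes, 2592 fell in BDK (62.4% of the DK list and 47.2% of the BDK list) and 491 rose (11.8% of the DK list). With at least 2-fold in both comparisons, 513 of the 755 higher genes rose (67.9%, beside 13.6% of all genes tested) and 33 fell, and 854 of the 1318 lower genes fell (64.8%, beside 15.3% of all) and 32 rose. The log2 differences of both comparisons correlated at r = 0.54 across the 18010 genes, which share the libraries' composition and are not independent replicates. With each comparison within 1 side of the library split, an alternative chosen after seeing the data, 4399 genes went the same way and 556 opposite ways, against 5285 and 781 with all libraries. With each comparison fitted on its own 6 libraries, also added after seeing the data, so that they share no library, 5075 genes went the same way and 676 opposite ways. In those fits 498 of the 770 genes at least 2-fold higher in DK rose at least 2-fold in BDK (64.7%, beside 12.8% of all genes tested), and 822 of the 1420 lower genes fell (57.9%, beside 15.4% of all).

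The distance of each library from the 70-day pale fruit was measured as the root mean square log2 difference from the mean of the 3 BDK libraries of 70 days, over 19649 genes. It was 0.89, 0.911 and 0.932 in the DK libraries, against 0.989, 0.878 and 0.978 in the BDK libraries of 85 days. The ranges overlapped, and the means, 0.911 ± 0.021 in DK and 0.949 ± 0.061 in ripe BDK (SD, n = 3 each), did not differ beyond the spread of the libraries (two-sided exact permutation test, p = 0.4, smallest possible 0.1). The 70-day libraries lay 0.514 to 0.635 from the mean of the other 70-day libraries. Each DK library was farther from the 70-day pale fruit than any of these libraries was from the rest of its group. Side by side, over the 18010 genes, the comparison with 70-day BDK called 2073 genes at least 2-fold different for DK (11.5%) and 2332 for BDK at 85 days (12.9%). Both comparisons use the same 70-day libraries. The 18010 genes were filtered on DK and 70-day BDK only, so genes listed only in ripe BDK are missing, which can lower its count.

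**Figure D4:**
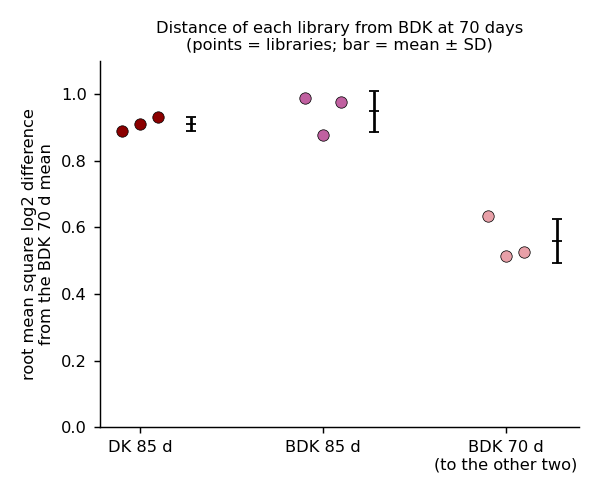
Root mean square log2 difference of each library from the mean of BDK at 70 days, with mean and SD of 3 libraries, for DK at 85 days, BDK at 85 days and, each against the other two, BDK at 70 days. DK libraries lay at 0.89 to 0.932 and BDK libraries of 85 days at 0.878 to 0.989.

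Most well-expressed genes of the red fruit lay within 2-fold of the 70-day level of the pale fruit. Since a p above a threshold does not show equal levels, each gene was tested for a difference smaller than 2-fold with a pair of one-sided limma tests. Of the 9257 genes that averaged 10 FPKM or more over the 6 libraries, 7218 (78.0%) passed at an adjusted p below 0.05. These genes made up 54.6% ± 1.56 of all FPKM in DK and 49.5% ± 1.89 in BDK at 70 days (SD, n = 3 each). Of the 7218 genes, 3266 were nevertheless called different, by less than 2-fold. With a margin of 1.5-fold 4188 genes passed.

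The most abundant of these genes was c42860_g1, at 18990, 15511 and 16526 FPKM in DK, against 21491, 20254 and 23434 FPKM in BDK at 70 days. The groups did not overlap on FPKM as deposited. After scaling, the log2 difference of -0.20, with a 95% interval of -0.64 to 0.23, lay within 2-fold (limma, adjusted p of the equivalence test 0.00207). In BDK it was at 5689 ± 451 FPKM at 55 days and 15879 ± 1623 FPKM at 85 days (SD, n = 3), so the 55-day fruit stood below the other groups. The second, c56639_g1, had 7978 ± 1217 FPKM in DK and 7952 ± 2333 FPKM in BDK at 70 days (SD, n = 3 each), with an interval of -0.39 to 0.75 for the log2 difference (limma, adjusted p of the equivalence test 0.00827). In BDK it was at 1682 ± 316 FPKM at 55 days and 7503 ± 1351 FPKM at 85 days.

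Few well-expressed genes lay within 2-fold of the 70-day level in red fruit and changed at least 2-fold in ripe pale fruit. Of the 7218 genes within 2-fold of 70-day BDK in DK, 175 were called at least 2-fold changed in ripe BDK. Only genes averaging 10 FPKM or more over the 6 libraries were counted. From 70 to 85 days in BDK, 83 of the 175 rose and 92 fell. For all genes tested, whatever their level, that step called 885 (4.91%) at least 2-fold higher and 1447 (8.03%) at least 2-fold lower. Both comparisons use the 70-day libraries, so the number is the size of a class and was not tested. With no minimum level it was 291, with 129 genes rising and 162 falling in BDK. Without BDK 85-day replicate 2 it was 284. With the margin of 1.5-fold it was 8. Within 2-fold is not equal: 56 of the 83 and 50 of the 92 genes were themselves called different between DK and 70-day BDK. Between DK and ripe BDK, 51 of the 83 and 66 of the 92 genes were called different, 10 and 21 of them at least 2-fold. Among all 7218 genes within 2-fold of 70-day BDK, 843 were so called, 44 of them at least 2-fold. The rule that chose the class favours such calls, so they are no separate result. In DK 41 of the 83 and 65 of the 92 genes lay nearer the 70-day than the ripe level of BDK, beside 2503 of the 7218. The class was chosen by these same levels, which favours the 70-day side. The median level of the class in DK lay between the 70-day and the ripe level of BDK. The median of the mean levels of the 83 genes was 31 FPKM in DK, and in BDK 21.7 FPKM at 70 days and 43.2 FPKM at 85 days. For the 92 genes it was 23.0 FPKM in DK, and in BDK 35.4 FPKM at 70 days and 12.4 FPKM at 85 days.

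The genes of this class named here are those that changed most in BDK without overlap of its libraries. Gene c44203_g1 had 52.3, 49.4 and 53.8 FPKM in DK, against 39.2, 55.6 and 39.7 FPKM in BDK at 70 days. Ripe BDK fruit had 174, 135 and 159 FPKM, above every library of the other groups. The log2 difference between DK and 70-day BDK was 0.37, with a 95% interval of -0.19 to 0.93 (limma, adjusted p of the equivalence test 0.0242). That p was 0.0507, 0.06 and 0.0898 without DK replicate 1, DK replicate 2 and BDK 70-day replicate 2. Gene c56360_g1 had 151, 151 and 179 FPKM in DK, against 152, 128 and 117 FPKM in BDK at 70 days. Ripe BDK fruit had 422, 515 and 421 FPKM of it, and 55-day fruit 125 to 146 FPKM, so ripe BDK alone stood high. Its log2 difference between DK and 70-day BDK was 0.43, with an interval of 0.17 to 0.69 (limma, adjusted p of the equivalence test 0.000686), and it was also called higher in DK (limma's adjusted p = 0.0133).

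Gene c55881_g1 lay within 2-fold of the 70-day level in red fruit and was low in ripe pale fruit, with 31.9, 27.1 and 29.4 FPKM in DK, against 47.1, 35.7 and 30.2 FPKM in BDK at 70 days. At 85 days BDK had 1.96, 6.2 and 4.87 FPKM of it, below every other library. The log2 difference between DK and 70-day BDK was -0.18, with an interval of -0.80 to 0.44 (limma, adjusted p of the equivalence test 0.0119). The same assembly cluster holds 6 other genes, 1 of them at 66.3 FPKM in DK and 74.3 FPKM in BDK at 70 days, so its own level is uncertain.

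Gene c48279_g1 was listed only in these 2 groups. It had 23.7, 34.1 and 13.5 FPKM in DK, against 37.9, 16.9 and 12.7 FPKM in BDK at 70 days, and 0 in all 6 BDK libraries of 55 and 85 days. Its place within 2-fold was not firm. The 95% interval of the log2 difference ran from -0.50 to 1.05, and limma's adjusted p of the equivalence test, 0.0475, was above the threshold in 15 of 23 other settings (0.104 with only DK and 70-day BDK in the model, 0.202 without BDK 70-day replicate 1), over a range from 0.0151 to 0.213.

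**Figure D5:**
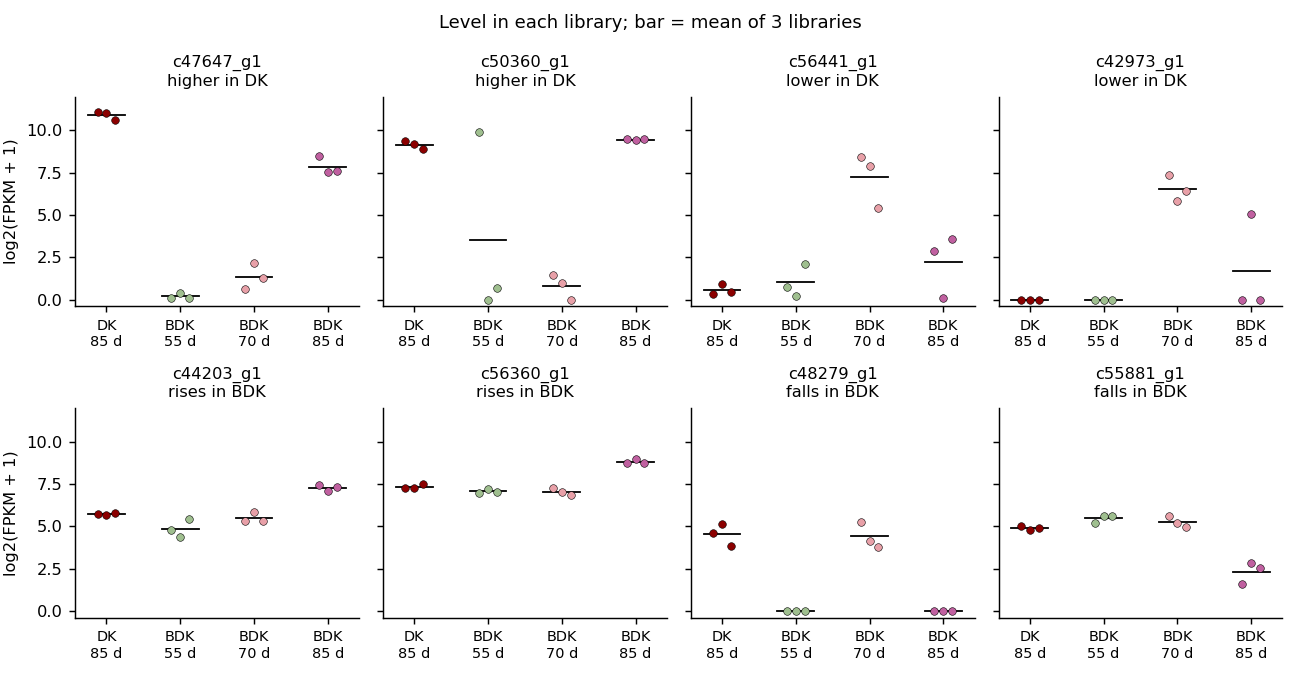
Level of 8 genes in each library as log2(FPKM + 1), with the mean of 3 libraries as a bar. The upper row holds the genes with the largest differences between DK and BDK at 70 days, and in the lower row DK lies within 2-fold of the 70-day level by the equivalence test, not firmly for c48279_g1 and with c56360_g1 called higher in DK, while BDK at 85 days lies higher (c44203_g1, c56360_g1) or lower (c48279_g1, c55881_g1).

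Few assembly clusters held genes called in opposite directions between the groups. Of 2538 clusters with at least 2 genes tested, 123 held a gene called at least 4-fold different in DK against 70-day BDK, and 1 held genes called at least 4-fold in opposite directions. Within the BDK strain, at 85 against 70 days, 136 clusters held such a gene and 3 held opposite ones. Of all genes tested, 4.19% were called at least 2-fold higher and 7.32% at least 2-fold lower in DK than in 70-day BDK. These shares are at a lower threshold than the 4-fold of the clusters, and shares at 4-fold are not given. How many opposite clusters unrelated genes would give was not tested.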

How the data were processed

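Titles gave each sample's group and replicate number, and the series' design text gave the days after flowering. The authors deposited FPKM, a single column per library with 2 decimals, per the file headers. How transcripts were assembled and quantified is not stated there. Per the labels' protocols, the fruits were frozen and their RNA taken up in Trizol for Illumina libraries.

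Libraries were scaled by the trimmed mean of their log ratios (30% of ratios and 5% of mean levels removed on either side, over genes of 1 FPKM or more in both), which gave factors of 0.895 to 1.14. The model, in limma 3.58.1 (R 4.3.3), took log2(FPKM / factor + 1) of all 12 libraries in 4 groups, with no covariates and with variances that follow the mean level. P-values were adjusted by Benjamini-Hochberg over the 18010 genes, and called means an adjusted p below 0.05. The equivalence test took the larger p of a pair of one-sided moderated tests against log2 differences of -1 and 1. It was counted for genes averaging 10 FPKM or more over the 6 libraries, because the added 1 FPKM narrows differences of low genes.

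Genes named are the 2 most raised and 2 most lowered genes that were called, averaged 10 FPKM or more in the higher group and showed no overlap between libraries, the 2 rising and 2 falling most in BDK among those within 2-fold of the 70-day level in DK, and the 2 most abundant within 2-fold. The comparison, lists and tests were chosen with earlier results of these data known. No pair of the 6 libraries had equal values in more than 2.42% of tested genes, so none was a copy. No counting interval can be given without counts.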

Additional observations from a re-analysis of the deposited data

How the results depend on the processing

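The count of genes called stayed within 1.5 times of 7889 under all 23 alternatives run (6427 with no filter on low values, 8216 with only the 2 groups in the model, 6515 to 8193 with 1 library left out). The genes at least 2-fold different in DK numbered 460 higher and 536 lower with 5 FPKM added in place of 1, and the lower ones 846 with a filter of 5 FPKM. Genes within 2-fold of the 70-day level numbered 12198 with no minimum level and 4188 with a margin of 1.5-fold. Those that also changed in BDK numbered 291 and 8 under these settings, and 129 to 284 with 1 library left out. Genes going opposite ways in the comparison with BDK at 85 against 55 days numbered 344 with no filter, where r was 0.25. Clusters with opposite genes numbered 4 with 0.1 FPKM added, 1 to 3 with 1 library left out and 2 within each side of the library split. Genes present in 1 group and at 0 in the other numbered 19 in all, and 82 without BDK 70-day replicate 1. The difference in distance from the 70-day fruit kept its sign in 9 alternatives, with an exact permutation p of 0.2 to 0.9. The 4 genes named for their difference stayed called under all 23 alternatives. Depth is unknown, so the reliability of weak genes could not be graded.

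Same-numbered DK and 70-day BDK libraries deviated from their group means with r of 0.011, 0.16 and -0.19 over genes, and no DK library correlated best with its own number. With the replicate number as a block 7707 genes were called.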
